A study of Mus musculus with 9 samples.

Results

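The genes that encode the proteins of the cytosolic ribosome were examined in lungs of tumour-bearing mice. Members were set by a rule on name and level, chosen with earlier results of these data known. A member had a symbol of Rpl or Rps with a number, or was Rpsa, Rplp0, Rplp1 or Rplp2. It also had to reach 1 TPM in 3 or more of the 9 libraries. TPM is a transcript abundance that takes transcript length into account and has an equal total in all libraries. Of the 45706 genes listed, 88 had such a name and 84 of these passed the minimum. They comprise 49 genes of the large subunit and 35 of the small subunit. The 4 that did not pass were Rpl10l, which is listed at 0 in every library, Rpl39l, Rps12l1 and Rps12l2. Of the 84 genes, 81 are annotated as protein coding. The other 3, Rps3a2, Rps3a3 and Rps4l, are annotated as pseudogenes and stayed in because their names fit.

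The lungs came from female BALB/c mice, aged 4 to 6 weeks, with 4T1 cells, a mouse mammary carcinoma line, injected into the right flank. The nanocapsule group received an antibody against PD1 packed in nanocapsules at 150 µg per mouse, the anti-PD1 group received the antibody itself, and the PBS group received phosphate-buffered saline. The label states the dose in a way that does not settle whether it also holds for the unpacked antibody. All groups were treated on days 7 and 14 after engraftment, all carried the tumour, and all lungs were taken on day 21. There were 3 lungs in each group and 9 libraries of poly(A) RNA. The labels number the lungs within a group but do not say that each came from a separate mouse, so the p-values below measure the spread between these samples, which may be technical. PD1 is a receptor that restrains activated T cells.

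A cytosolic ribosome is built from a small subunit, which reads the mRNA, and a large subunit, which joins amino acids into protein. Most ribosomal proteins are needed in about equal number, so cells keep the protein output of these genes closely matched. Their mRNAs belong to the most abundant in growing cells and begin with a run of pyrimidines, the terminal oligopyrimidine (TOP) tract, through which the kinase mTOR and the RNA-binding protein LARP1 control their translation and stability. Lymphocytes that become activated make many ribosomes, whereas mature neutrophils hold few.

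The bases around the transcription start are shown for 7 members, 4 of those with the largest differences described below (Rps28, Rpl38, Rplp2 and Rps27) and 3 with the smallest (Rps9, Rplp0 and Rpl7l1). The sequences are from RefSeq on build GRCm38.p6, run 5′ to 3′ from 80 bases before to 20 bases after the annotated start, and carry every run of at least 8 pyrimidines in capitals.
Rps28 (chr17:33824543-33824642, minus strand): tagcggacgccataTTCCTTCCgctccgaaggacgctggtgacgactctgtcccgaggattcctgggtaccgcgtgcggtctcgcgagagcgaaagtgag
Rpl38 (chr11:114668500-114668599, plus strand): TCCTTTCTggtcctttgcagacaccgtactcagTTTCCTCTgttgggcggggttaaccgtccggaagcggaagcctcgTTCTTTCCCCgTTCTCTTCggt
Rplp2 (chr7:141447571-141447670, plus strand): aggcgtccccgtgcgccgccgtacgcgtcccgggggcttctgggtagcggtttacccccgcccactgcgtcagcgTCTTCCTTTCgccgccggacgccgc
Rps27 (chr3:90213629-90213728, minus strand): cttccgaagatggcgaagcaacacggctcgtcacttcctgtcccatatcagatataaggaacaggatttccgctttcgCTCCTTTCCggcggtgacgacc
Rps9 (chr7:3703961-3704060, plus strand): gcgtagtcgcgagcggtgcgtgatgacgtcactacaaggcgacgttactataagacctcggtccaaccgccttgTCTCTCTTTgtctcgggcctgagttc
Rplp0 (chr5:115559387-115559486, plus strand): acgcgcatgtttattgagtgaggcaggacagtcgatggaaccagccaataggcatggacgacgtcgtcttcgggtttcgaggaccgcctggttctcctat
Rpl7l1 (chr17:46782637-46782736, minus strand): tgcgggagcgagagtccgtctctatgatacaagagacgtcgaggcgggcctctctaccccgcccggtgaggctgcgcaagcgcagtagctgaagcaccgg
In Rpl38, Rplp2, Rps27 and Rps9 a pyrimidine run lies close to the annotated start. In Rps28 the run lies farther upstream, and no run of this length is in the windows of Rplp0 and Rpl7l1. RefSeq promoter windows were found for 61 of the 84 members, with 73 sequences in all. Runs of at least 8 pyrimidines on the coding strand in the same 100 bases were present in 65.8% of the member sequences and in 37% of all 32851 sequences. The letters CCGGAAG, the core of sites for ETS family factors, occurred on either strand of the 300-base windows in 35.6% of the members' sequences and in 8.86% of all. AAGATGG, the core of sites for the factor YY1, occurred in 16.4% of the members' sequences and in 6.34% of all. These matches describe letters only, and binding was not measured.

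The ribosomal protein genes were among the most abundant transcripts of these lungs. The median member averaged 1020 TPM over the 9 libraries, against 11.3 TPM for the median of the 13248 genes tested, and 22 members were among the 100 genes of highest mean. A mean of at least 1000 TPM was reached by 42 members, 38 lay from 100 to 1000 TPM, and 4 lay under 100 TPM. Highest were Rps27, a zinc-binding protein of the small subunit, at 5922 TPM, Rplp1, an acidic protein of the stalk that recruits elongation factors, at 4099 TPM, and Rps9, which lies where the mRNA enters the small subunit, at 3823 TPM. Rps12 and Rps15, also of the small subunit, followed at 2806 and 2225 TPM. The lowest were Rpl3l at 1.48 TPM, the pseudogenes Rps3a3 at 3.70 and Rps4l at 21.8 TPM, Rpl7l1 at 30.7 TPM and Rps27l at 155 TPM, so the lowest members were pseudogenes and paralogs of core genes. Many processed pseudogenes resemble these genes and could share reads with them. The 258 rows with an Rpl or Rps name that contains -ps together held 1.49% to 1.65% as much TPM as the members, with no gap between the groups. Pseudogenes under other names, and those among the members, are not in this sum.

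Each library had 12194 to 13407 genes at 1 TPM or more, and as TPM keep no depth, the sequencing depth was unknown. Markers of alveolar epithelium, the check of the labelled tissue, summed to 1070 to 4548 TPM in the nanocapsule lungs, 1900 to 4384 TPM in the anti-PD1 lungs and 730 to 1572 TPM in the PBS lungs, and 15 of 16 passed the minimum. The lungs were also rich in neutrophil transcripts. Of all 13248 genes, limma called 14 between the nanocapsule and anti-PD1 groups and 1 in each comparison with PBS, at an adjusted p under 0.05 (Benjamini-Hochberg). With 3 lungs in each group, the smallest two-sided p of an exact permutation test is 0.1.

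Taken as a share of all transcripts, ribosomal protein mRNA was lowest in the nanocapsule lungs and highest in the anti-PD1 lungs. The 84 members summed to 8.62%, 7.88% and 7.79% of the TPM in nanocapsule lungs 1 to 3, to 11.6%, 9.89% and 11.3% in anti-PD1 lungs 1 to 3, and to 9.52%, 8.01% and 10.9% in PBS lungs 1 to 3. Every nanocapsule lung was therefore below every anti-PD1 lung, while the PBS lungs spread over most of the range of both. The means were 8.10% ± 0.456 in the nanocapsule group, 10.9% ± 0.916 in the anti-PD1 group and 9.49% ± 1.46 in the PBS group (SD, n = 3). No test was made of a sum over members.

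Both subunits shared this order. Large subunit genes took 4.03% ± 0.230 of the TPM in nanocapsule lungs, 5.45% ± 0.471 in anti-PD1 lungs and 4.72% ± 0.775 in PBS lungs (SD, n = 3). Small subunit genes took 4.07% ± 0.233, 5.48% ± 0.452 and 4.77% ± 0.685 in the nanocapsule, anti-PD1 and PBS lungs (SD, n = 3). The ratio of small to large subunit TPM stayed between 0.985 and 1.04 in all 9 libraries and averaged 1.01 ± 0.0211 in nanocapsule lungs, 1.01 ± 0.0194 in anti-PD1 lungs and 1.01 ± 0.0215 in PBS lungs (SD, n = 3). The groups overlapped in this ratio, and their means differed by less than the spread within a group. Its value depended on a few genes: without the 5 most abundant members, 4 of them in the small subunit, it was 0.756, 0.763 and 0.767 in the same order of groups.

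**Figure D1:**
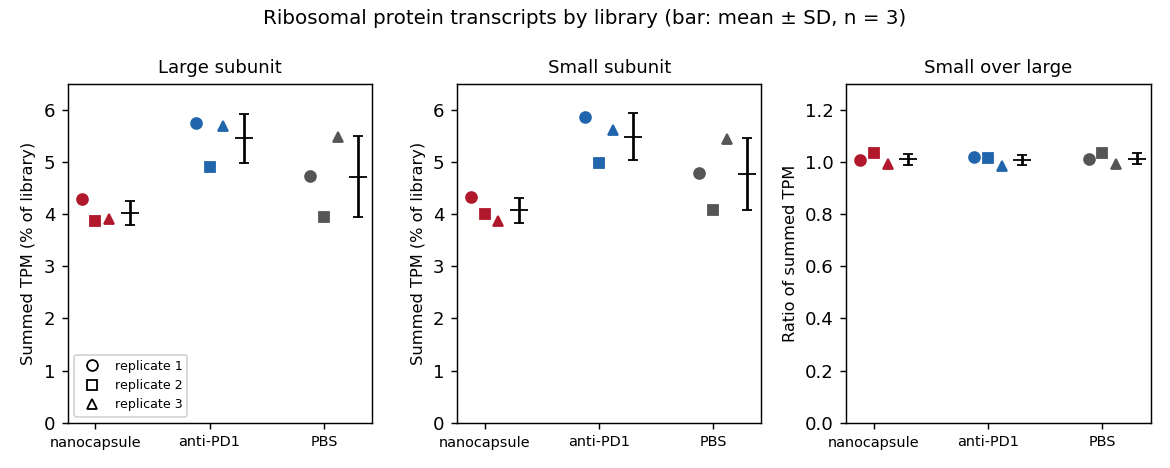
Summed TPM of the 49 large subunit genes (left) and 35 small subunit genes (middle) as percent of the library, and the ratio of small to large (right), for each of 9 libraries, with the group mean ± SD (n = 3). The nanocapsule lungs lie below the anti-PD1 lungs for both subunits, the PBS lungs overlap both groups, and the ratio lies between 0.985 and 1.04 throughout.

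The libraries of a group differed from each other in the whole family at once. PBS 3 had the highest level of its group in 79 of 84 members, and PBS 2 the lowest in 82. In the anti-PD1 group, replicate 2 was lowest in 71 members. In the nanocapsule group, replicate 1 was highest in 70. Leukocyte transcripts differed along with them. The 20 markers of mature neutrophils summed to 18.1% to 20.5% of the TPM in nanocapsule lungs, 11.8% to 13.5% in anti-PD1 lungs and 14.2% to 19.7% in PBS lungs, and PBS 2 held the highest PBS value. All 20 T cell markers passed the minimum, and their sums ran from 482 to 553 TPM in nanocapsule lungs, 586 to 1451 TPM in anti-PD1 lungs and 615 to 1162 TPM in PBS lungs. The 16 B cell markers ran from 298 to 420 TPM in nanocapsule lungs, 518 to 888 TPM in anti-PD1 lungs and 477 to 942 TPM in PBS lungs. Within the PBS group, PBS 3 had the most T and B cell transcripts and PBS 2 the fewest, the same order as for ribosomal protein mRNA. The part of these cells in the ribosomal protein differences was not tested. In bulk tissue, fewer cells of a type and less RNA per cell cannot be told apart.

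The 18 tested endothelial markers summed to 72.7 to 163 TPM in nanocapsule lungs, 222 to 421 TPM in anti-PD1 lungs and 64.5 to 169 TPM in PBS lungs, so they too separated the anti-PD1 lungs from the other groups. Transcripts of the mitochondrial genome took 2.05% to 3.05% in nanocapsule lungs, 4.71% to 5.48% in anti-PD1 lungs and 2.14% to 4.08% in PBS lungs. All 20 neutrophil markers were higher by value in nanocapsule than in anti-PD1 lungs, while 70.8% of all genes were lower. Of the 20, 2 were called, where 0.106% of all genes were called. Cd177, a neutrophil surface protein, was higher by 0.85 ± 0.13 (SE) on the log2(TPM + 1) scale. Padi4, which citrullinates histones, was higher by 0.88 ± 0.13 (SE), both at a limma adjusted p of 0.0448. Of 9 tested markers of neutrophil precursors, 7 were higher by value and 2 lower. The 2 called were Cebpe, higher by 1.01 ± 0.12 (SE), and Elane, higher by 1.23 ± 0.16 (SE), both at a limma adjusted p of 0.0393. These calls did not hold for every set of libraries: no gene of the 13248 was called in this comparison without nanocapsule 2, without anti-PD1 1 or without anti-PD1 2.

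**Figure D2:**
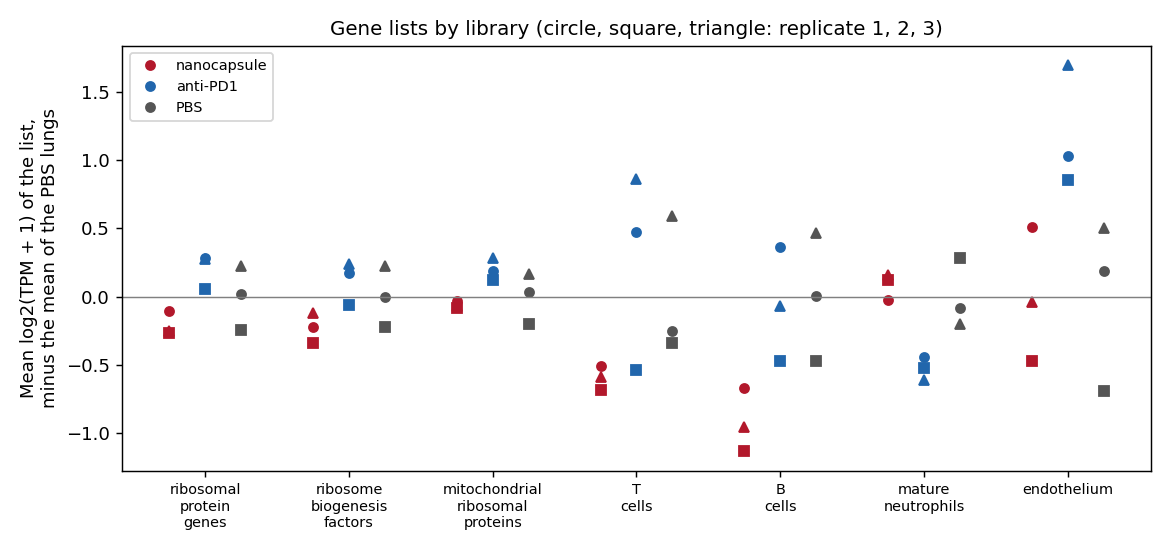
Mean log2(TPM + 1) of 7 gene lists in each library, minus the mean of the PBS lungs (vertical axis), with nanocapsule, anti-PD1 and PBS lungs from left to right within each list. Ribosomal protein genes ran from -0.27 to -0.11 in nanocapsule lungs, 0.06 to 0.29 in anti-PD1 lungs and -0.24 to 0.22 in PBS lungs, while the neutrophil list was lowest in the anti-PD1 lungs.

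Nanocapsule against anti-PD1 lungs compared the packed antibody with the antibody alone. Ribosomal protein genes were lower by value in 83 of 84 members, against 70.8% of all genes tested, with a median difference of -0.43 on the log2(TPM + 1) scale, against -0.17 for all genes. The medians of the large and small subunit were -0.42 and -0.43. No member passed the threshold in limma (background 0.106% called), though the smallest adjusted p, 0.0519, lay just above it. At an unadjusted p under 0.05, 68 members were lower and none was higher, against 21% of all genes lower and 6.69% higher. The 3 nanocapsule lungs were all below the 3 anti-PD1 lungs in 70 members, 40 large and 30 small, against 24.6% of all genes, and all above them in none, against 8.73%.

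Rps28, a small protein near the mRNA exit of the small subunit, had 1057, 902 and 885 TPM in nanocapsule lungs, 1675, 1502 and 1490 TPM in anti-PD1 lungs and 1218, 1158 and 1476 TPM in PBS lungs. The 3 groups did not overlap, with the nanocapsule lungs lowest. Its fitted difference between nanocapsule and anti-PD1 lungs was -0.72 ± 0.12 (SE, limma adjusted p = 0.0519). Rpl38, a large subunit protein whose loss in mice alters the patterning of the skeleton, had 853, 815 and 780 TPM in nanocapsule lungs, 1303, 1244 and 1342 TPM in anti-PD1 lungs and 1008, 872 and 1185 TPM in PBS lungs. The 3 groups did not overlap, and the difference between nanocapsule and anti-PD1 lungs was -0.67 ± 0.12 (SE, limma adjusted p = 0.0519). Rps27 had 4999, 4867 and 4277 TPM in nanocapsule lungs, 8009, 7093 and 6782 TPM in anti-PD1 lungs and 5666, 5231 and 6370 TPM in PBS lungs. It too was ordered nanocapsule, PBS, anti-PD1 with no overlap, at -0.63 ± 0.13 between nanocapsule and anti-PD1 lungs (SE, limma adjusted p = 0.0608).

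The stalk proteins were not alike. Rplp2, which binds elongation factors in a pair with Rplp1, had 1360, 1286 and 1112 TPM in nanocapsule lungs, 1860, 1870 and 2001 TPM in anti-PD1 lungs and 1310, 1273 and 1507 TPM in PBS lungs. The nanocapsule lungs were below the anti-PD1 lungs and overlapped the PBS lungs, and the difference between nanocapsule and anti-PD1 lungs was -0.61 ± 0.11 (SE, limma adjusted p = 0.0519). Rplp1 averaged 3432 ± 333 TPM in nanocapsule lungs, 4894 ± 466 TPM in anti-PD1 lungs and 3972 ± 706 TPM in PBS lungs (SD, n = 3), a difference of -0.51 ± 0.16 between nanocapsule and anti-PD1 lungs (SE, limma adjusted p = 0.0955). Rplp0, the base on which the stalk sits, had 873, 813 and 819 TPM in nanocapsule lungs, 966, 742 and 993 TPM in anti-PD1 lungs and 939, 805 and 1032 TPM in PBS lungs. Its groups overlapped, at -0.10 ± 0.13 between nanocapsule and anti-PD1 lungs (SE, limma adjusted p = 0.637).

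The next members by p were of both subunits. In the large subunit Rpl35a, mutated in some patients with Diamond-Blackfan anaemia, averaged 583 ± 33.0 TPM in nanocapsule lungs and 866 ± 37.3 TPM in anti-PD1 lungs. Rpl30 averaged 402 ± 33.4 and 588 ± 28.5 TPM, Rpl37 276 ± 5.96 and 384 ± 5.55 TPM, and Rpl39, which lines the exit tunnel of the new protein, 501 ± 47.0 and 699 ± 25.9 TPM, in nanocapsule and anti-PD1 lungs (SD, n = 3). In the small subunit Rps29 averaged 1637 ± 170 and 2439 ± 80.5 TPM and Rps20 403 ± 37.6 and 594 ± 36.4 TPM, again in nanocapsule and anti-PD1 lungs (SD, n = 3). In all 6 genes the groups did not overlap, with limma adjusted p from 0.0557 to 0.0674. Rpl36a, with 581, 479 and 465 TPM in nanocapsule lungs and 831, 707 and 834 TPM in anti-PD1 lungs, had one of the 3 lowest differences, -0.64 ± 0.16 (SE, limma adjusted p = 0.0736).

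Members with well-known roles beyond their place in the ribosome lay in the body of the family. Rps6, which S6 kinases phosphorylate downstream of mTOR, had 1016, 921 and 978 TPM in nanocapsule lungs, 1375, 1056 and 1322 TPM in anti-PD1 lungs and 1118, 960 and 1359 TPM in PBS lungs. The nanocapsule lungs were below the anti-PD1 lungs and overlapped the PBS lungs, at -0.36 ± 0.14 between nanocapsule and anti-PD1 lungs (SE, limma adjusted p = 0.15). Rpl5 and Rpl11 bind the ubiquitin ligase MDM2 when ribosome assembly fails. Rpl11 had 917, 829 and 859 TPM in nanocapsule lungs, 1279, 1066 and 1325 TPM in anti-PD1 lungs and 1090, 820 and 1247 TPM in PBS lungs, without overlap between nanocapsule and anti-PD1 lungs. Rpl5 had 503, 414 and 516 TPM in nanocapsule lungs, 729, 509 and 679 TPM in anti-PD1 lungs and 582, 477 and 758 TPM in PBS lungs, with overlap. Their differences between nanocapsule and anti-PD1 lungs were -0.49 ± 0.15 for Rpl11 and -0.41 ± 0.18 for Rpl5 (SE, limma adjusted p = 0.0992 and 0.182). Rps19, the gene most often mutated in Diamond-Blackfan anaemia, had 1331, 1107 and 1195 TPM in nanocapsule lungs, 1712, 1292 and 1770 TPM in anti-PD1 lungs and 1519, 1190 and 1857 TPM in PBS lungs. Its groups overlapped, with a difference of -0.38 ± 0.18 between nanocapsule and anti-PD1 lungs (SE, limma adjusted p = 0.186).

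A few members lay far from the rest of the family. Rps9 had 3728, 4148 and 3562 TPM in nanocapsule lungs, 3850, 3862 and 3884 TPM in anti-PD1 lungs and 3889, 3666 and 3819 TPM in PBS lungs. Its groups overlapped, and the difference of -0.02 ± 0.11 between nanocapsule and anti-PD1 lungs (SE, limma adjusted p = 0.901) turned positive under each of the 3 other scalings, 0.15 under median-of-ratios scaling. Rpl7l1, a paralog of Rpl7 found in human ribosome assembly intermediates, had 31.5, 29.2 and 30.3 TPM in nanocapsule lungs, 32.8, 29.1 and 29.4 TPM in anti-PD1 lungs and 30.9, 28.5 and 34.1 TPM in PBS lungs. The overlap was complete, and its difference, -0.00 ± 0.10 (SE, limma adjusted p = 0.983), likewise turned positive under each of the 3 other scalings, 0.16 under median-of-ratios scaling. Rpl3l, a paralog of Rpl3 known from striated muscle, had 1.49, 2.33 and 1.65 TPM in nanocapsule lungs, 1.18, 2.52 and 1.17 TPM in anti-PD1 lungs and 0.825, 1.19 and 0.944 TPM in PBS lungs. At 0.13 ± 0.23 (SE, limma adjusted p = 0.715) it was the only member higher by value in nanocapsule than in anti-PD1 lungs.

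How firmly these differences stood against the spread depended on the PBS lungs, which share the estimate of the spread but not the comparison. Without PBS 2 the fit called 40 members lower in nanocapsule than in anti-PD1 lungs, and without PBS 3 it called 11. Over all genes tested, the same fits called 962 genes without PBS 2 and 188 without PBS 3, against 14 with all libraries. Calls thus rose over all 13248 genes as well, though by a smaller share than among the 84 members. That difference in share was not tested. The unadjusted count of 68 became 45 without nanocapsule 2, 41 without anti-PD1 1, 44 without anti-PD1 3, and 31 without the library of each group that was highest in immature thymocyte genes (nanocapsule 2, anti-PD1 3 and PBS 3). Under median-of-ratios scaling the median over all genes in this comparison was -0.03, the members' median was -0.26, 79 members were lower by value and 30 members were at an unadjusted p under 0.05. The unadjusted counts under these alternatives lack a background, as the share over all genes was not computed for them.

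**Figure D3:**
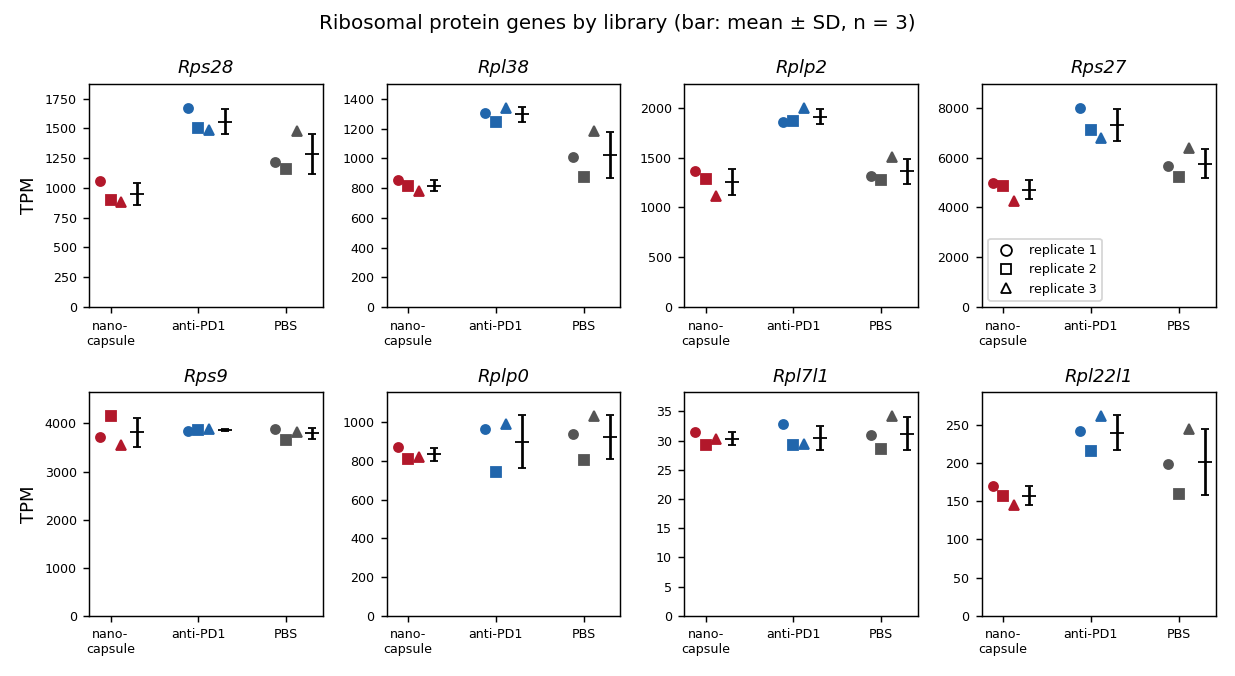
TPM of 8 ribosomal protein genes (vertical axes start at 0) in nanocapsule, anti-PD1 and PBS lungs, with the group mean ± SD (n = 3). Rps28, Rpl38, Rplp2, Rps27 and Rpl22l1 do not overlap between nanocapsule and anti-PD1 lungs, whereas Rps9, Rplp0 and Rpl7l1 overlap.

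Nanocapsule against PBS lungs gave the same sign with a smaller size. These comparisons share samples, so their agreement is not independent. Ribosomal protein genes were lower by value in 79 of 84 members, against 71.2% of all genes, with a median of -0.23, against -0.11 for all genes. No member was called in limma (background 0.00755% called), the smallest adjusted p being 0.365. At an unadjusted p under 0.05, 12 members were lower, against 8.92% of all genes, and none was higher, against 1.22%. The groups did not overlap in 9 members that were lower, a share near the background of 11.9%, and in 1 that was higher, Rpl3l (background 2.4%).

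Rps28 had the smallest p in this comparison, with a difference of -0.43 ± 0.12 (SE, limma adjusted p = 0.365). Rpl37 averaged 276 ± 5.96 TPM in nanocapsule lungs and 354 ± 49.6 TPM in PBS lungs, and Rpl30 402 ± 33.4 TPM in nanocapsule lungs and 517 ± 67.1 TPM in PBS lungs (SD, n = 3). Neither gene overlapped between the groups. Rpl12, which sits at the base of the stalk, had the lowest difference, -0.44 ± 0.22 (SE, limma adjusted p = 0.514). Its 700, 510 and 681 TPM in nanocapsule lungs nonetheless overlapped the 811, 684 and 1097 TPM in PBS lungs. Rpl13a, which is released from the ribosome after interferon-gamma treatment in human monocytes, had 1372, 1216 and 1203 TPM in nanocapsule lungs and 1610, 1293 and 2069 TPM in PBS lungs, also with overlap. Rpl31, Rps29, Rpl38, Rpl39, Rps20 and Rps2 were also among the genes with the smallest p, at -0.34 to -0.29. At the other end were Rpl3l at 0.50 ± 0.23 and the pseudogene Rps4l at 0.33 ± 0.34 (SE, limma adjusted p = 0.491 and 0.747). Next came Rps27a, which is made as a fusion with ubiquitin, at 0.04 ± 0.11 (SE, limma adjusted p = 0.926). It had 1563, 1637 and 1309 TPM in nanocapsule lungs and 1430, 1354 and 1599 TPM in PBS lungs.

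The result moved with single libraries. The median was -0.35 without PBS 2, -0.11 without PBS 3 and -0.07 without the 3 libraries highest in immature thymocyte genes. The unadjusted count of 12 was 68 without PBS 2, 3 without PBS 3, 6 without PBS 1, 3 without nanocapsule 2, 5 without nanocapsule 3 and 0 without those 3 libraries. Median-of-ratios scaling gave a median of -0.11, 3 members at an unadjusted p under 0.05 and 5 without overlap. No share over all genes was computed for these settings, so the counts lack a background.

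Anti-PD1 against PBS lungs had the opposite sign. Ribosomal protein genes were higher by value in 81 of 84 members, against 56.9% of all genes, with a median of 0.20, against 0.04 for all genes. No member was called in limma (background 0.00755% called), and the smallest adjusted p was 0.211, for Rplp2. At an unadjusted p under 0.05, 10 members were higher, against 8.48% of all genes, and none was lower, against 8.06%. The groups did not overlap in 11 members, all higher, a share near the background of 12.1%, while 13.4% of all genes were lower without overlap. All 35 small subunit genes were higher by value, with a median of 0.23, and 46 of 49 large subunit genes, with a median of 0.18.

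Rplp2 lay at 0.49 ± 0.11 (SE, limma adjusted p = 0.211), with every anti-PD1 lung above every PBS lung. Rpl41, a basic peptide that is the shortest ribosomal protein, had 2521, 2572 and 2509 TPM in anti-PD1 lungs and 2073, 1824 and 2240 TPM in PBS lungs, without overlap, at 0.31 ± 0.12 (SE, limma adjusted p = 0.257). Rps27a had 1690, 1761 and 1845 TPM in anti-PD1 lungs and 1430, 1354 and 1599 TPM in PBS lungs, also without overlap. Rpl38, Rpl35a, Rpl37a, Rps27l, Rps27, Rps28 and Rpl34 were the other genes with the smallest p, at 0.27 to 0.35. The highest fitted differences beside Rplp2 were those of Rps4l, 0.72 ± 0.34, and Rps14, 0.38 ± 0.17 (SE, limma adjusted p = 0.317 and 0.314). The lowest were those of Rplp0, -0.04 ± 0.13, Rpl7l1, -0.03 ± 0.10, and Rpl29, -0.03 ± 0.16, each of which changed sign when single libraries were left out.

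Here too PBS 2 and PBS 3 set the size. The median was 0.08 without PBS 2 and 0.32 without PBS 3. The unadjusted count of 10 was 3 without PBS 2, 47 without PBS 3, 4 without PBS 1, 3 without anti-PD1 1, 16 without anti-PD1 2 and 4 without anti-PD1 3. Median-of-ratios scaling gave a median of 0.14, with 4 members at an unadjusted p under 0.05 and 21 without overlap. The matching shares of all genes were not computed for these settings, so the counts have no background and are not results about the family.

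**Figure D4:**
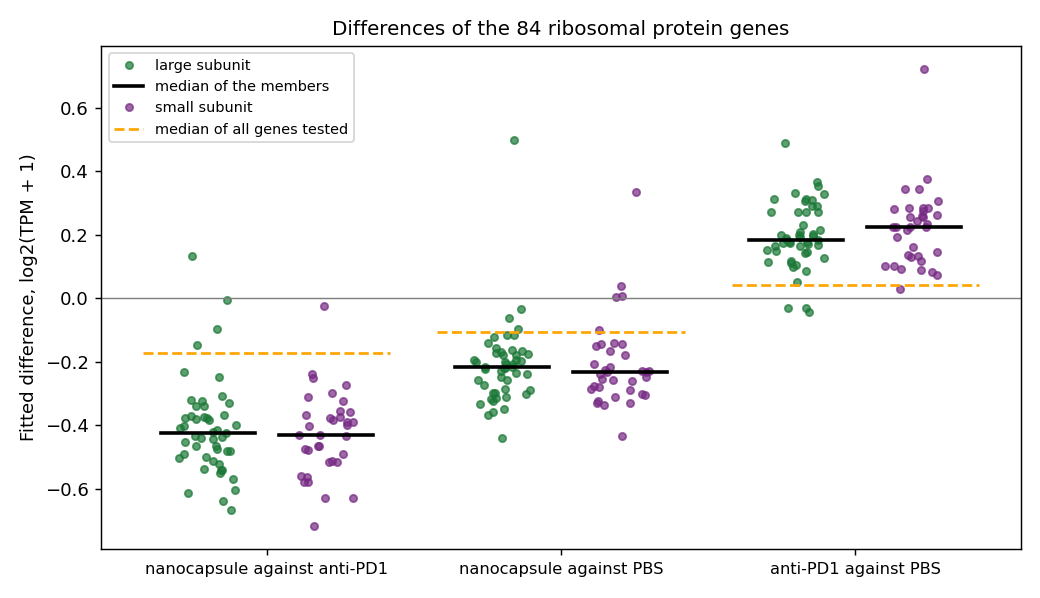
Fitted differences on the log2(TPM + 1) scale (vertical axis) of the 84 members in 3 comparisons, by subunit, with the median of each subunit (black) and of all genes tested (dashed). The members' medians are -0.43, -0.23 and 0.20, farther from 0 than the all-gene medians of -0.17, -0.11 and 0.04.

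To see how members varied among themselves, each was also taken as a share of the members' sum in its library. Most of the family moved together: 50 of 84 shares differed by less than 0.1 (log2) between nanocapsule and anti-PD1 lungs, 62 between nanocapsule and PBS lungs and 57 between anti-PD1 and PBS lungs. Between nanocapsule and anti-PD1 lungs, 14 shares were higher in every nanocapsule lung than in any anti-PD1 lung and 10 were lower. Among these non-overlapping shares, farthest below were Rps28 at -0.29, Rpl38 at -0.24 and Rpl36a at -0.21, and farthest above were Rpl7l1 at 0.43, Rps9 at 0.41 and Rplp0 at 0.33. The share of Rpl3l, at 0.67, was higher still but overlapped. Between anti-PD1 and PBS lungs, the share of Rplp2 was 0.28 higher and those of Rplp0 and Rpl7l1 were 0.26 and 0.24 lower (log2), all without overlap. Between nanocapsule and PBS lungs, Rpl3l at 1.09, Rps28 at -0.22, Rps27l at 0.23 and Rpl7l1 at 0.18 were among the shares that did not overlap. Without overlap, 9 shares were higher and 13 lower in anti-PD1 than in PBS lungs, and 6 were higher and 7 lower in nanocapsule than in PBS lungs. Such shares exist only for members, so these counts have no background over all genes. With 3 lungs in each group, full separation in either direction has a two-sided p of 0.1 in an exact permutation test. The shares are descriptions with no test, and being shares they sum to the same total in every library.

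Shorter members tended to have larger differences. Over the 81 protein-coding members, the median difference between nanocapsule and anti-PD1 lungs was -0.54 for 10 genes with a coding length under 300 nucleotides, -0.47 for 33 genes of 300 to 450, -0.41 for 16 genes of 450 to 600 and -0.38 for 22 genes of 600 or more. Between anti-PD1 and PBS lungs the medians were 0.29, 0.20, 0.21 and 0.15 in the same order of length, and between nanocapsule and PBS lungs -0.32, -0.24, -0.19 and -0.22. Between nanocapsule and anti-PD1 lungs, the short genes included Rps28, Rpl38, Rps27 and Rps29, but also Rpl41, the shortest, at -0.38. The long ones included Rpl4 at -0.34, Rplp0 at -0.10 and Rpl7l1 at -0.00, but also Rpl3 at -0.42 and Rps2 at -0.51. Across the 81 genes, which share libraries and are not independent replicates, the correlation of the difference with log2 coding length was 0.45 (Pearson) and 0.53 (Spearman) for nanocapsule against anti-PD1 lungs, 0.20 and 0.24 for nanocapsule against PBS lungs, and -0.42 and -0.46 for anti-PD1 against PBS lungs. Genes outside the family showed little of this between nanocapsule and anti-PD1 lungs, with medians of -0.19, -0.20, -0.18 and -0.16 in the 4 length classes. Between nanocapsule and PBS lungs their medians were 0.02, -0.02, -0.03 and -0.12, with the short genes highest, unlike the members. Between anti-PD1 and PBS lungs their medians were 0.19, 0.15, 0.11 and 0.03, with the short genes highest, like the members. A trend with length in that comparison was therefore not particular to the family.

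**Figure D5:**
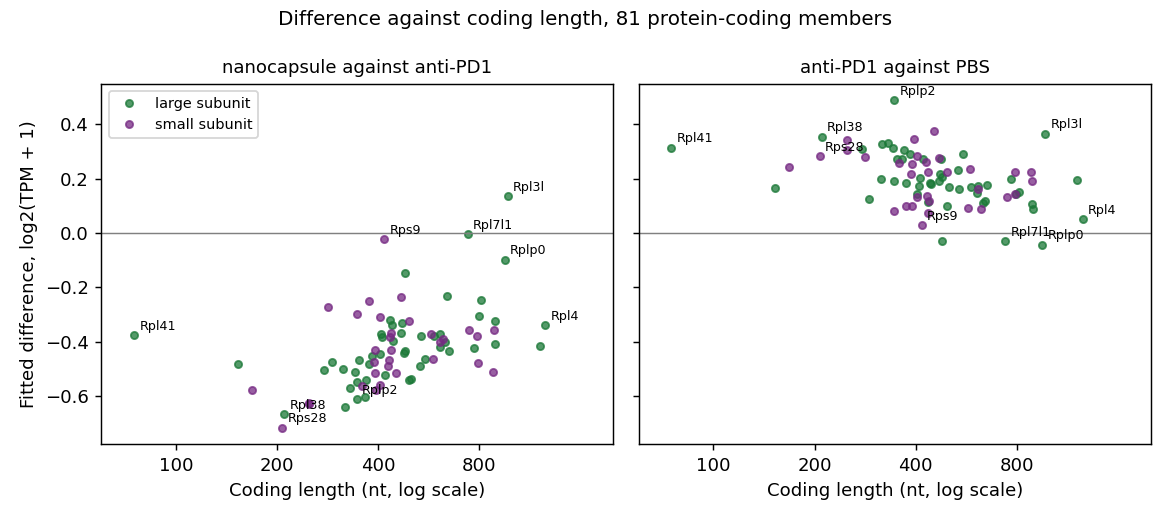
Fitted difference on the log2(TPM + 1) scale against coding length in nucleotides (log scale) for 81 protein-coding members, nanocapsule against anti-PD1 lungs (left) and anti-PD1 against PBS lungs (right). Short genes such as Rps28 and Rpl38 lie lowest on the left, and Rps9, Rpl7l1, Rplp0 and Rpl3l lie near or above 0.

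Paralogs that can take the place of a core protein were compared with it. Rpl22, an RNA-binding protein needed for the development of mouse alpha-beta T cells, averaged 722 ± 57.3 TPM in nanocapsule lungs, 987 ± 53.3 TPM in anti-PD1 lungs and 816 ± 157 TPM in PBS lungs (SD, n = 3). Its paralog Rpl22l1 averaged 157 ± 12.3, 240 ± 22.8 and 201 ± 42.9 TPM in nanocapsule, anti-PD1 and PBS lungs (SD, n = 3). Both were without overlap between nanocapsule and anti-PD1 lungs, at -0.45 ± 0.14 for Rpl22 and -0.60 ± 0.15 for Rpl22l1 (SE, limma adjusted p = 0.0955 and 0.073). Rps27l, a paralog of Rps27 induced by the tumour suppressor Trp53, had 146, 138 and 151 TPM in nanocapsule lungs, 180, 165 and 182 TPM in anti-PD1 lungs and 158, 123 and 154 TPM in PBS lungs. The anti-PD1 lungs were above both other groups, and the difference between nanocapsule and anti-PD1 lungs was -0.27 ± 0.11 (SE, limma adjusted p = 0.142). Rpl7 averaged 812 ± 64.1, 969 ± 140 and 871 ± 117 TPM in nanocapsule, anti-PD1 and PBS lungs, and Rpl3 392 ± 39.7, 525 ± 78.6 and 461 ± 95.0 TPM in the same order (SD, n = 3). Rpl10 averaged 1601 ± 211, 1873 ± 150 and 1734 ± 236 TPM in that order, with overlap between all groups. Rpl39l, the testis paralog of Rpl39, stayed between 0.216 and 0.945 TPM in all libraries. Rpsa, which joins the small subunit and is also known as a laminin receptor, averaged 693 ± 54.4, 892 ± 119 and 785 ± 151 TPM in nanocapsule, anti-PD1 and PBS lungs (SD, n = 3).

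Ribosomal proteins outside the naming rule were also measured. Fau, whose product carries a ribosomal protein of the small subunit fused to a ubiquitin-like protein, had 3234, 3350 and 2863 TPM in nanocapsule lungs, 3580, 3527 and 3484 TPM in anti-PD1 lungs and 3163, 3054 and 3369 TPM in PBS lungs. Its difference between nanocapsule and anti-PD1 lungs was -0.17 ± 0.11 (SE, limma adjusted p = 0.312). The nanocapsule and anti-PD1 lungs did not overlap. Gnb2l1, the table's name for the scaffold protein RACK1, had 643, 551 and 627 TPM in nanocapsule lungs, 851, 670 and 861 TPM in anti-PD1 lungs and 734, 575 and 818 TPM in PBS lungs.

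Other parts of the translation machinery had the same sign, and none of their genes was called in limma in any comparison. The values are on the log2(TPM + 1) scale and are to be read against all genes tested, of which 70.8% were lower by value in nanocapsule than in anti-PD1 lungs, with a median of -0.17. Of 38 tested ribosome biogenesis factors, which assemble pre-ribosomes, 36 were lower by value in nanocapsule than in anti-PD1 lungs, with a median of -0.36. Wdr12, which acts in processing of large subunit rRNA, was at -0.67 ± 0.16 and Wdr43, which acts in the small subunit processome, at -0.52 ± 0.15 (SE, limma adjusted p = 0.0736 and 0.0883). All 12 elongation factor and other TOP genes were lower by value, with a median of -0.30, among them Eef1d at -0.41 ± 0.12 and Eef1b2 at -0.39 ± 0.12, both subunits of the exchange factor of elongation factor 1 (SE, limma adjusted p = 0.0888 and 0.102). Of 34 initiation factor genes, 31 were lower, with a median of -0.21, near that of all genes. Eif3g and Eif3i, subunits of initiation factor 3, were at -0.38 ± 0.12 and -0.37 ± 0.12 (SE, limma adjusted p = 0.097 and 0.11).

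Of 14 genes of RNA polymerase I and its factors, which transcribe rRNA, 11 were lower by value in nanocapsule than in anti-PD1 lungs, a share near the 70.8% of all genes, with a median of -0.24. The lowest adjusted p was that of Znrd1, a polymerase subunit, at -0.52 ± 0.10 (SE, limma adjusted p = 0.0527). Among 15 regulators the median was -0.07. Myc, which drives ribosome biogenesis, was at -0.70 ± 0.26 and Eif4ebp1, a translation repressor that mTOR inactivates, at 0.43 ± 0.11 (SE, limma adjusted p = 0.128 and 0.0745). Mitochondrial ribosomal proteins form a separate ribosome, and 73 of 77 were lower by value, with a median of -0.26. Their medians were -0.05 between nanocapsule and PBS lungs and 0.21 between anti-PD1 and PBS lungs, against -0.23 and 0.20 for the cytosolic members. That difference between the families was not tested. In nanocapsule against PBS lungs the biogenesis, elongation, initiation and polymerase I lists had medians of -0.22, -0.20, -0.13 and -0.17, and in anti-PD1 against PBS lungs 0.12, 0.10, 0.07 and 0.09.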

How the data were processed

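Poly(A) RNA of 9 lungs, 3 in each group, was sequenced from libraries primed with random hexamers, per the labels' protocols. The values used were TPM for each gene as deposited by the authors, all columns adding up to the same total. Salmon is named in the title of that table. The build GRCm38 is named in the submitters' processing notes, with no aligner settings. The sources used here do not give the strand setting or how reads shared with pseudogenes were treated. TPM divides by transcript length, so levels of very short genes depend on the length used.

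The 13248 genes that reached 1 TPM in 3 or more libraries entered 1 limma fit (limma 3.58.1, R 4.3.3) of log2(TPM + 1) over the 3 groups, with a variance trend over expression and 6 residual degrees of freedom. All p-values are two-sided and Benjamini-Hochberg adjusted over these genes within a comparison, and a gene was called under 0.05. Adding 1 understates the differences of low genes. Lists are given by counts and medians without a test. The fit was tested on simulated data. Coding lengths came from GENCODE M21 on GRCm38. The text names the 10 members with the smallest p and the 3 highest and 3 lowest differences in each comparison, the 5 highest and 5 lowest levels, the paralog pairs, the stalk genes and Rpsa, and from the other lists called genes or those with the smallest p. Genes outside the naming rule, Rpl4 as an example of a long gene, and Rps6, Rps19, Rpl5 and Rpl11 for their roles, were chosen after their values were seen, as were the largest differences in share. The members and lists were chosen with earlier results of these data known. Alternatives varied the pseudocount, the filter, the scaling, the variance model and the libraries. Some genes that these rules take are not reported here. No batch is labelled.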

Additional observations from a re-analysis of the deposited data

How the results depend on the processing

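The medians of the ribosomal protein genes kept their sign under every alternative tried. They ranged from 0.08 to 0.32 for anti-PD1 against PBS, -0.35 to -0.07 for nanocapsule against PBS and -0.52 to -0.26 for nanocapsule against anti-PD1, leaving out each library included. The count of called members was less stable. For nanocapsule against anti-PD1 it was 9 with a minimum of 5 TPM, 1 after quantile normalization, 2 on TPM renormalized without S100a8, S100a9, mitochondrial and haemoglobin genes, 74 with sample quality weights, 25 with only these 2 groups in the fit, and 0 to 40 when single libraries were left out, against 0. Over all genes tested, the same fits called 182 with the 5 TPM minimum, 75 after quantile normalization and 79 on renormalized TPM. They called 3421 with sample quality weights, 476 with only these 2 groups and 0 to 962 when single libraries were left out, against 14. For anti-PD1 against PBS the count of called members was 1 with sample quality weights (Rplp2), where 279 of all genes were called. It was 0 for each omitted library, and for nanocapsule against PBS it stayed 0. The cause was not tested.

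Counts at an unadjusted p under 0.05 for anti-PD1 against PBS (10) were 4 under median-of-ratios scaling, 16 on renormalized TPM, 45 with sample quality weights and 3 to 47 when single libraries were left out. For nanocapsule against PBS (12) they were 3 under median-of-ratios scaling, 36 with sample quality weights, 0 without the 3 libraries highest in thymocyte genes and 3 to 68. For nanocapsule against anti-PD1 (68) they were 30 under median-of-ratios scaling, 31 without those 3 libraries and 41 to 75. Members without overlap under median-of-ratios scaling numbered 21 for anti-PD1 against PBS and 5 for nanocapsule against PBS. For none of these alternatives was the share over all genes computed, so the counts show only how far they move.

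The values do not settle whether the replicate numbers pair the lungs. Of 9 same-numbered pairs, 3 had a correlation of deviations over 0.1. These were anti-PD1 2 and PBS 2 at 0.28, anti-PD1 3 and PBS 3 at 0.28, and nanocapsule 2 and PBS 2 at 0.14. The lowest was -0.18, for nanocapsule 3 and anti-PD1 3. In both other groups, 3 of 9 libraries correlated best with their own number. With the replicate number as a block, 31 members were called for nanocapsule against anti-PD1 and none elsewhere. Over all genes tested, 1095 were called for nanocapsule against anti-PD1 with the block, against 14 without it. The unadjusted counts of members with the block were 20 for anti-PD1 against PBS and 29 for nanocapsule against PBS, without a computed share over all genes.

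By construction, the summed shares were 10.1%, 13.4% and 11.6% in nanocapsule, anti-PD1 and PBS lungs on renormalized TPM and 6.47%, 8.75% and 7.64% without the 5 most abundant members, and the subunit ratios 0.756, 0.763 and 0.767. When single libraries were left out the shares ran from 7.83% to 8.25%, 10.6% to 11.4% and 8.77% to 10.2% in the same order of groups.

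The number of members higher by value for anti-PD1 against PBS was 81 of 84, but 69 without PBS 2, and the number lower for nanocapsule against PBS was 79, but 73 under median-of-ratios scaling and without the 3 libraries highest in thymocyte genes, and 75 without PBS 3. Among the named genes, signs turned as follows. For anti-PD1 against PBS, Rpl29 (-0.03) was 0.036 after quantile normalization, 0.024 without the 3 thymocyte-high libraries and -0.21 to 0.11 when single libraries were left out. Rpl7l1 (-0.03) was 0.016 with sample quality weights, 0.059 without the 3 libraries and -0.092 to 0.035 when single ones were left out, and Rplp0 (-0.04) was -0.14 to 0.09. For nanocapsule against PBS, Rps27a (0.04) ran from -0.027 to 0.13 and Rps4l (0.33) from -0.028 to 0.61 over the omitted libraries. For nanocapsule against anti-PD1, Rps9 (-0.02) was 0.15 under median-of-ratios scaling, 0.29 after quantile normalization, 0.007 on renormalized TPM and -0.085 to 0.025 over the omitted libraries. Rpl7l1 (-0.00) was 0.16, 0.11 and 0.025 under those 3 scalings and -0.033 to 0.049 over the omitted libraries. Rpl3l (0.13) was -0.11 without the 3 libraries. With a minimum of 5 TPM 82 members were tested, without Rpl3l and Rps3a3. The libraries highest in thymocyte genes, the members without pseudogenes and the unadjusted counts were added after the data were seen. Depth is unknown, so no counting error can be given.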

Other observations

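Of the lists of alveolar macrophages, dividing cells, immature thymocytes and erythroid cells, no gene was called by limma in any comparison. The 15 alveolar macrophage markers were all lower by value in nanocapsule than in anti-PD1 lungs, with a median of -0.71 on the log2(TPM + 1) scale, and summed to 1844 to 3053 TPM in nanocapsule lungs, 3352 to 4011 TPM in anti-PD1 lungs and 2058 to 3260 TPM in PBS lungs. Of 27 tested genes of dividing cells, 20 were lower by value in nanocapsule than in anti-PD1 lungs, with a median of -0.14, close to the -0.17 of all genes. The summed levels of dividing-cell genes overlapped between all groups. The 6 tested genes of immature thymocytes summed to 16.4 to 36.6 TPM in nanocapsule lungs, 18.1 to 141 TPM in anti-PD1 lungs and 19.2 to 58.7 TPM in PBS lungs. Rag2 and Ptcra, which define these cells, did not reach 1 TPM in 3 libraries but were not absent. With both included, the highest sum of each group rose to 38.0 TPM in nanocapsule 2, 145 TPM in anti-PD1 3 and 60.3 TPM in PBS 3. The 5 tested erythroid genes summed to 3899 to 21040 TPM in nanocapsule lungs, 12540 to 25870 TPM in anti-PD1 lungs and 3501 to 13250 TPM in PBS lungs, a spread within groups larger than that of the ribosomal protein genes.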
